A study of Mus musculus with 4 samples.

Results

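miR-140 and miR-455 are the miRNAs best known from cartilage, and both arms of each hairpin were followed here in cultured synovial fibroblasts. The members were found by name, as every listed miRNA called miR-140 or miR-455 once the species prefix and the arm mark were removed. This gave 4 mature miRNAs (mmu-miR-140, mmu-miR-140*, mmu-miR-455 and mmu-miR-455*, written below without the prefix) of the 590 listed in any library, and all 4 were listed in every library and passed the filter on low counts. The cells came from the hind joints of 8-week-old mice of mixed CBA/J and C57BL/6/J background and were used at passage 4. WT animals were compared with TghuTNF littermates, which carry a human TNF transgene and develop an arthritis like that of rheumatoid patients. There were 2 biological replicates per genotype, so variation between cultures is poorly known. The p-values of the fits set the genotype difference against that variation, estimated partly from the other miRNAs or hairpins tested. The sources used here name neither the promoter of the transgene nor the number of mice behind a culture. Per the labels, over 80% to 90% of the cultured cells carried the fibroblast marker CD90.2 and under 1% the myeloid marker Mac1.

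A miRNA is cut from a hairpin that can release a strand from each of its arms, and bases 2 to 8 of the released strand, the seed, pair with target transcripts. The hairpin of miR-140 lies within Wwp2, and that of miR-455 within Col27a1, a gene of a fibrillar collagen of cartilage. Both miRNAs are abundant in chondrocytes, where Sox9, the transcription factor that specifies the lineage, promotes their expression together with their host genes. miR-140 is known to restrain the aggrecanase Adamts5 and the histone deacetylase Hdac4, and mice without it have short bones and early wear of joint cartilage. In the naming of the files the star marks the strand once thought to be discarded. By accession, miR-140 is the 5p strand and miR-140* the 3p strand, whereas miR-455 is the 3p strand and miR-455* the 5p strand.

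In GRCm38 the Mir140 hairpin occupies chr8:107551244-107551313 on the plus strand. GENCODE vM21 places it inside Wwp2 (107436365 to 107558595, same strand), in an intron of 3 of the 4 transcripts that span it and in an annotated exon of the other. Mir455 occupies chr4:63256851-63256932 on the plus strand, in an intron of all 4 transcripts of Col27a1 (63214004 to 63334991) that span it. The strands below are shown because the counts rest on matching reads to mature strands. RefSeq (GRCm38.p6) gave 3 of the 4, all on the plus strand, written 5′ to 3′ with the seed in capitals. The sequences used in the matching were not compared with these.

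miR-140* (miR-140-3p, chr8:107551288-107551308): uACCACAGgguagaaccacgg

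miR-455 (miR-455-3p, chr4:63256904-63256924): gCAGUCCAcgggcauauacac

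miR-455* (miR-455-5p, chr4:63256867-63256888): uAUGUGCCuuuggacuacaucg

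The remaining strand is miR-140-5p. The 3 seeds differ from one another. Among 1678 other mature mouse miRNAs in RefSeq, miR-497b has the seed of miR-140* and miR-5129-3p that of miR-455*, and neither name was listed in the files. No other mature miRNA has the seed of miR-455. Reads were accepted with at most 2 mismatches. The closest other mature sequence differed from miR-140* and from miR-455* at 7 bases each and from miR-455 at 8, over placements shifted by at most 2 bases with at least 16 bases overlapping. More mismatches thus separate these 3 strands, as RefSeq gives them, from every other miRNA compared than the matching allowed.

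The libraries held between 16680860 and 27362819 matches, and values are given as CPM, matches per 1000000 after TMM scaling. All mature miRNAs here are of nearly the same length, so CPM can be set side by side between them, although ligation to adaptors is known to favour some sequences over others. TghuTNF replicate 2 stood apart in one respect: 11.7% of its matches carried 2 mismatches, against 8.21% to 8.73% in the other libraries. Of the 59 miRNAs called in either direction, 46 lay farther from the WT mean in TghuTNF replicate 2 than in TghuTNF replicate 1. Reads carry no molecular identifiers, so intervals cover counting error only.

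The 2 hairpins moved in opposite directions. Both strands of miR-140 were higher in TghuTNF fibroblasts and both strands of miR-455 were lower. In edgeR's quasi-likelihood test with Benjamini-Hochberg adjustment over 442 miRNAs, 2 of the 4 members were called higher, where 4.75% of all tested miRNAs were, and 2 were called lower, where 8.6% were. For all 4 the TghuTNF libraries lay wholly above or wholly below the WT libraries, as did those of 60.6% of all tested miRNAs.

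miR-140*, the more abundant strand of its hairpin, measured 11702 and 12468 CPM in the 2 WT cultures, and 17675 and 24703 CPM in the TghuTNF cultures. The lower TghuTNF library was well above both WT libraries, and the TghuTNF pair was spread more widely than the WT pair. The WT mean was 12085 ± 542 CPM and the TghuTNF mean 21189 ± 4969 CPM (SD, n = 2), a 1.75-fold rise with a log2 fold change of 0.81 ± 0.18 (SE; edgeR adjusted p = 0.012). The strand ranked 19th and 18th by matches in the WT libraries and 11th and 8th in the TghuTNF libraries. Its share of all matches was lowest in WT replicate 1, at 1.15% (1.148% to 1.158%, exact 95% binomial interval), and highest in TghuTNF replicate 2, at 2.42% (2.417% to 2.430%).

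miR-140, the strand with the cartilage targets named above, was much scarcer but followed the same course. Its level was 547 and 596 CPM in WT and 829 and 1322 CPM in TghuTNF, again with no overlap and with TghuTNF replicate 2 the highest. Means were 571 ± 34.4 CPM and 1076 ± 348 CPM (SD, n = 2), a 1.88-fold rise (log2 fold change 0.91 ± 0.23, edgeR adjusted p = 0.024). Its rank by matches was 77 and 73 in WT against 65 and 50 in TghuTNF.

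Both calls rested on TghuTNF replicate 2. Without that library the log2 fold change was 0.51 for miR-140 (edgeR adjusted p = 0.14) and 0.52 for miR-140* (adjusted p = 0.10). Without TghuTNF replicate 1 it was 1.13 and 0.95. Upper quartile scaling, which moved the median of all miRNAs by -0.11, also took miR-140 past the threshold (0.79, edgeR adjusted p of 0.055); relative to that median it stood at 0.89.

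miR-455, the more abundant strand of its hairpin in WT cells, was scarce beside miR-140*. It stood at 45.8 and 29.8 CPM in WT and fell to 13.0 and 7.50 CPM in TghuTNF, where the libraries held 360 and 169 matches. The lower WT library was still well above the higher TghuTNF library. Means were 37.8 ± 11.3 and 10.3 ± 3.92 CPM (SD, n = 2), a 3.67-fold fall (log2 fold change -1.88 ± 0.33, edgeR adjusted p = 0.0027), the 13th deepest fall among the 442 miRNAs. Leaving out any 1 library kept the call, with log2 fold changes from -2.40 to -1.54.

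miR-455* was at 19.9 and 14.4 CPM in WT and at 7.50 and 7.73 CPM in TghuTNF. Here the TghuTNF libraries nearly coincided and the spread was among the WT libraries. Means were 17.2 ± 3.87 and 7.61 ± 0.16 CPM (SD, n = 2), a 2.25-fold fall (log2 fold change -1.17 ± 0.27, edgeR adjusted p = 0.016). The call was lost without WT replicate 1, the higher WT library (-0.92, edgeR adjusted p = 0.23).

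**Figure D1:**
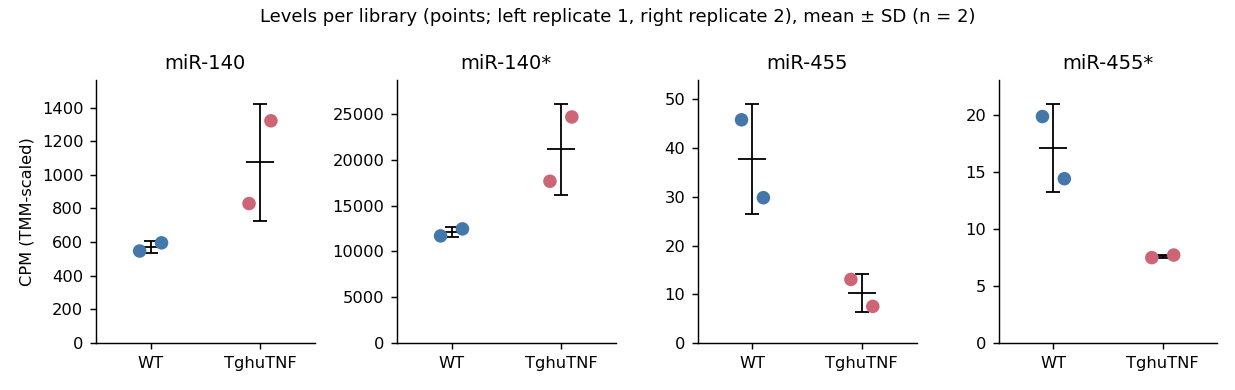
TMM-scaled CPM of the 4 strands in each library (points, replicate 1 left and replicate 2 right; blue WT, red TghuTNF), with the mean and SD of each genotype (n = 2) and axes starting at 0. The TghuTNF points of miR-140 (829 and 1322 CPM) and miR-140* lie above both WT points, and those of miR-455 (13.0 and 7.50 CPM) and miR-455* lie below.

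In the plot of change against level, miR-140* is among the most abundant miRNAs that were called, while the miR-455 strands lie in the crowded lower range. The 4 log2 fold changes were larger in size than the median over all tested miRNAs, which was 0.40 regardless of sign. By size of change miR-455 ranked 22nd, miR-455* 50th, miR-140 77th and miR-140* 89th of 442.

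**Figure D2:**
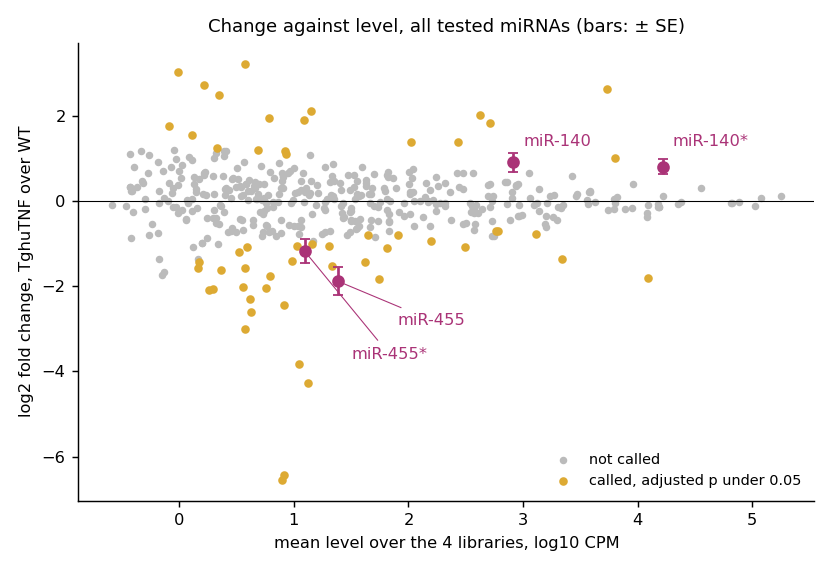
Log2 fold change (TghuTNF over WT) against the mean level (log10 CPM) for the 442 tested miRNAs, with the called ones in yellow and the 4 strands in purple with SE bars. miR-140 (0.91) and miR-140* (0.81) lie above zero and miR-455 (-1.88) and miR-455* (-1.17) below it.

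Summing the strands of each hairpin name across the whole table gave 1 value per hairpin that does not depend on strand choice. miR-140 was 1.75-fold higher (edgeR adjusted p = 0.0017, log2 fold change 0.81 ± 0.17), whereas miR-455 was 3.06-fold lower (-1.61 ± 0.29, edgeR adjusted p = 0.00036). The strand miR-140* made up 94.9% to 95.5% of the miR-140 sum, so the value of that sum largely repeats the result for miR-140*. Of 336 summed names, 7.74% were called higher and 9.23% lower. Without TghuTNF replicate 2 the call of miR-140 was lost (0.55, adjusted p = 0.092).

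The ratio of miR-140 to miR-455 reads compares the hairpins inside each library and needs no scaling. It was 186 and 295 in WT, against 901 and 1709 in TghuTNF. Both TghuTNF libraries thus exceeded both WT libraries, which follows from the opposite moves of the 2 hairpins and is no separate evidence. The mean log2 ratio was 7.87 ± 0.47 for WT against 10.28 ± 0.65 for TghuTNF (SD, n = 2). The difference was 2.40, which is 5.29-fold. The exact two-sided permutation p was 0.333, the smallest that 2 libraries against 2 can give.

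Strand choice differed between the hairpins. In miR-140 the star strand held 95.5%, 95.4%, 95.5% and 94.9% of the hairpin's matches in WT replicates 1 and 2 and TghuTNF replicates 1 and 2. There were 21.4 and 20.9 star reads per named read in WT and 21.3 and 18.7 in TghuTNF, and the genotypes overlapped. Of 104 hairpins with both strands past the filter, 30 had more star or 3p than named or 5p reads, and miR-140 ranked 5th in that direction. Only 66 of the 104 were pairs of a named and a star strand, so this rank mixes the 2 kinds of naming. The difference of its log2 ratio between genotypes was 0.085 ± 0.25 (SE; limma adjusted p = 0.95).

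In miR-455 the named strand exceeded the star strand 2.30-fold and 2.07-fold in WT and 1.74-fold in TghuTNF replicate 1, while in TghuTNF replicate 2 the ratio was 0.97. The genotypes did not overlap, as was the case for 37.5% of the 104 hairpins, and TghuTNF replicate 2, with 169 and 174 reads, was the library in which the strands were level. The mean log2 ratio was 1.12 ± 0.11 for WT against 0.38 ± 0.59 for TghuTNF (SD, n = 2). The difference of -0.75 ± 0.34 (SE) did not pass (limma adjusted p = 0.70). It ranked 9th by size among the 104 hairpins, whose median size was 0.23. It was -0.33 without TghuTNF replicate 2, -1.17 without TghuTNF replicate 1 and -0.97 on perfect matches alone, and passed in none of these. Under limma, 0% of the 104 hairpins were called and 5 had an unadjusted p under 0.05.

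**Figure D3:**
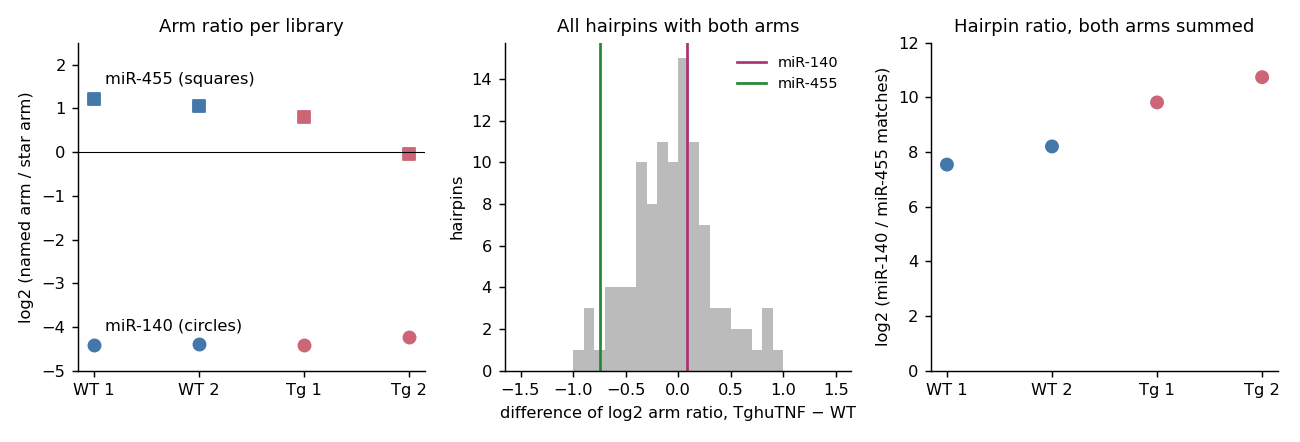
Left, log2 ratio of named to star strand per library (blue WT, red TghuTNF); middle, histogram of the genotype difference of that ratio over 104 hairpins, with lines for miR-140 (0.085) and miR-455 (-0.75); right, log2 ratio of miR-140 to miR-455 matches per library. The miR-140 strand ratio is nearly flat, the miR-455 ratio is lowest in TghuTNF replicate 2, and the hairpin ratio is higher in both TghuTNF libraries.

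Of the 104 hairpins, 87 had no strand called. Of the 17 others, 10 had both strands called, 9 of them lower and 1, miR-140, higher, and 7 had 1 strand called. None had strands called in opposite directions. Since miR-140 lost its calls without TghuTNF replicate 2, this count of 1 also rests on that library. The strands of a hairpin share a precursor and a library and are not separate replicates.

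The files split each count by the number of mismatches, without the position of a mismatch or the start of a read. miR-140 matched best: 90.1% and 89.3% of its matches were perfect in WT and 90.6% and 84.4% in TghuTNF. miR-140* had 56.7% and 52.8% perfect matches in WT and 54.6% and 50.3% in TghuTNF. Its 1-mismatch share was 40.7% to 44.7% in the 4 libraries, against a median of 16.2% over the 267 miRNAs with at least 100 matches in every library, where it ranked 54th. The 1-mismatch reads were thus a large and steady part of the star strand's count in every library.

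miR-455 had 62.8% and 56.5% perfect matches in WT and 61.4% and 47.9% in TghuTNF, the last with an exact 95% interval of 40.2% to 55.7%. miR-455* had 70.3% and 76.1% in WT and 81.2% and 74.7% in TghuTNF. The genotypes overlapped for every member. When limma was applied to the odds that a match was perfect, the log2 differences (TghuTNF minus WT) were -0.27 ± 0.35 for miR-140, -0.13 ± 0.23 for miR-140*, -0.29 ± 0.36 for miR-455 and 0.37 ± 0.31 for miR-455* (SE, limma adjusted p from 0.84 to 0.89). Of the 267 miRNAs 0% were called, and 10 had an unadjusted p under 0.05.

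The 2-mismatch class of miR-140 separated a single library. It held 0.36% and 0.26% of the strand's matches in WT, 0.20% in TghuTNF replicate 1 and 5.43% in TghuTNF replicate 2, or 32, 42, 45 and 1618 reads. For miR-140* the share was 2.46% to 2.56% in the first 3 libraries and 6.23% in TghuTNF replicate 2. For miR-455 it was 14.8% in that library against at most 11.7% elsewhere, and for miR-455* 13.2% against up to 15.3%. TghuTNF replicate 2 had the highest 2-mismatch share for 81.3% of the 267 miRNAs, with a median ratio of 1.49 to the next highest library.

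The changes in level were nevertheless much the same within the perfect class. miR-140 stood at 493 and 532 CPM in WT and 751 and 1116 CPM in TghuTNF when perfect matches alone were counted. Refitted on perfect matches, the log2 fold changes were 0.88 for miR-140, 0.76 for miR-140*, -1.96 for miR-455 and -1.06 for miR-455*, all called (edgeR adjusted p = 0.037, 0.020, 0.011 and 0.035). In the 2-mismatch class, miR-140 rose from a mean of 1.75 to 36.7 CPM, carried by TghuTNF replicate 2 alone (71.8 CPM, against 1.63 in TghuTNF replicate 1).

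**Figure D4:**
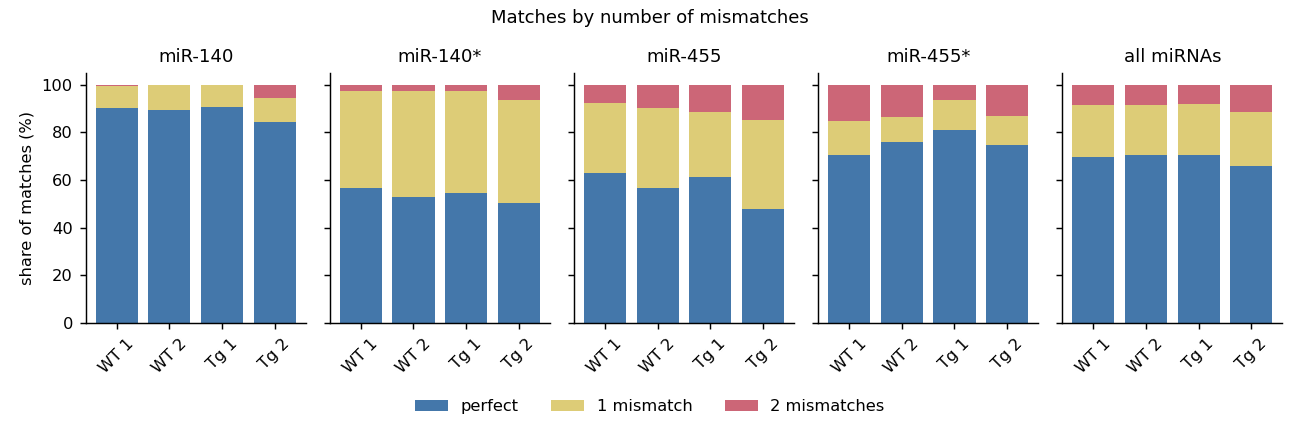
Share of matches (%) that were perfect, had 1 mismatch or had 2 mismatches, for each strand and for all miRNAs, in the 4 libraries (Tg, TghuTNF). The star strand of miR-140 carries 40.7% to 44.7% 1-mismatch reads in every library, and the 2-mismatch share of miR-140 is visible in TghuTNF replicate 2 (5.43%).

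Other miRNAs with known roles in cartilage were taken as lists, which were chosen with earlier results of these data known. Of 14 miRNAs reported to favour chondrogenesis or to restrain matrix-degrading enzymes, 12 could be tested with edgeR: 0 rose, 1 fell and 11 did not pass, with a median log2 fold change of -0.074 against 0.0056 over all tested miRNAs. Over all tested miRNAs 4.75% were called higher and 8.6% lower, so 1 of 12 is close to that share. The strands miR-675-5p and miR-675-3p were too scarce to test. The 1 that fell was miR-320, reported to target the collagenase Mmp13, at 1616 and 1629 CPM in WT and 974 and 939 in TghuTNF (-0.76 ± 0.16, edgeR adjusted p = 0.0096). miR-27b, which also targets Mmp13, was at -0.082 ± 0.16, miR-24 at -0.066 ± 0.17 and miR-125b-5p, which targets Adamts4, at 0.31 ± 0.15.

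Of 16 miRNAs reported to oppose chondrogenesis, 15 could be tested with edgeR: 4 rose, 0 fell and 11 did not pass, with a median of 0.21. Over all tested miRNAs 4.75% were called higher and 8.6% lower. This list too was chosen with earlier results of these data known, and miR-221 and miR-222 are neighbours, so the count is no test of the list. miR-222 went from 217 and 236 CPM to 768 and 850 (1.84 ± 0.19, edgeR adjusted p = 0.00011). Its neighbour miR-221 (2.02 ± 0.28), miR-138 (1.12 ± 0.29) and miR-495 (2.48 ± 0.43), which targets Sox9, were the others, though miR-495 reached at most 4.88 CPM. miR-138 was no longer called when either WT library was left out, at 0.93 without replicate 1 and 1.36 without replicate 2 (adjusted p from edgeR of 0.29 and 0.051). Nor was it called with upper quartile factors (adjusted p from edgeR of 0.055) or on perfect matches alone (0.071). miR-1247 was listed in no library.

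Among miRNAs typical of mesenchymal cells, 12 of 13 could be tested: 1 rose, 1 fell and 10 did not pass, with a median of -0.070. Over all tested miRNAs 4.75% rose and 8.6% fell, so 1 of 12 each way is close to the shares at large. Here miR-22 rose (1.02 ± 0.19) and miR-214 fell (-0.93 ± 0.26). miR-214 was not called without WT replicate 1 (-0.53, edgeR adjusted p = 0.45), with upper quartile factors (adjusted p = 0.061), at a mean of at least 100 CPM (adjusted p = 0.0999) or with limma-voom (adjusted p = 0.054). The 2 most abundant, miR-21 (0.12 ± 0.14) and miR-143 (-0.11 ± 0.14), did not pass.

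Markers of other cell types were also counted. Summed CPM of 7 blood cell markers ranged from 30.1 to 43.8 in WT and from 34.1 to 48.0 in TghuTNF. That of 5 skeletal muscle markers ranged from 2426 to 3008 and from 1784 to 2055, of 7 epithelial markers from 67.7 to 70.9 and from 30.7 to 36.8, of 2 endothelial markers from 108 to 127 and from 66.7 to 68.8, and of 5 neural markers from 70.1 to 75.9 and from 78.5 to 93.1. None of these markers was at 0 in all libraries. The muscle, epithelial and endothelial sums were lower in both TghuTNF libraries, the neural sum was higher and the blood sum overlapped. Taken singly, 60.6% of all tested miRNAs likewise did not overlap between the genotypes. Marker by marker, edgeR called 0 of 5 muscle markers tested, 1 of 4 epithelial and 1 of 2 endothelial markers lower, and 1 of 4 neural and 1 of 4 blood markers higher, where 8.6% of all tested miRNAs were called lower and 4.75% higher. The neural marker called was miR-138, which is also in the list of miRNAs reported to oppose chondrogenesis. It stood at 4.56 and 6.17 CPM in WT and 10.3 and 13.2 CPM in TghuTNF, and lost its call in the settings given above. The part of these cell types in the changes of miR-140 and miR-455 was not tested. The 4 strands were the only chondrocyte markers used, and they went in opposite directions. In bulk RNA, fewer cells of a type and less of a miRNA per cell cannot be told apart.

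Patterns over the 4 libraries were compared as the Euclidean distance between centred log2 CPM, among 133 miRNAs of other hairpins with a mean of at least 100 CPM. The strands of miR-140 lay 0.16 apart and those of miR-455 0.94 apart. Nearest to miR-140 were miR-22 (0.17), miR-127 (0.26) and miR-434-3p (0.26), against a median distance of 1.06. Nearest to miR-140* were miR-434-3p (0.15), miR-382 (0.16) and miR-127 (0.19). Of these neighbours miR-22 was called higher, while miR-127, miR-434-3p and miR-382 were not called (edgeR adjusted p = 0.065, 0.074 and 0.051). Without TghuTNF replicate 2 the log2 fold changes of those not called went from 0.67, 0.66 and 0.67 to 0.33, 0.36 and 0.45. Nearest to miR-455 were miR-146b (0.48), miR-378 (0.73) and miR-214 (1.03), against a median of 1.95, and nearest to miR-455* were miR-378 (0.25), miR-214 (0.35) and miR-676 (0.45). miR-146b stood at 24376 and 13644 CPM in WT and 5752 and 5217 in TghuTNF, so that it shared with miR-455 the higher level in WT replicate 1. With 4 libraries these distances are a description.

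**Figure D5:**
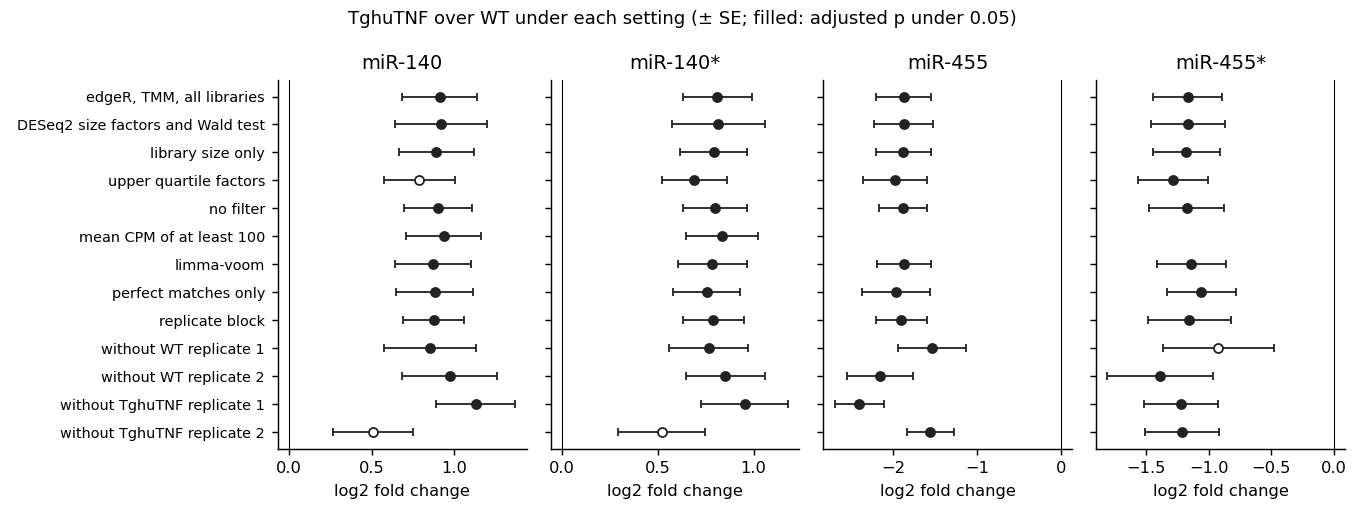
Log2 fold change (TghuTNF over WT, ± SE) of each strand under every setting tried, filled where the adjusted p was under 0.05. The direction was the same in every fit, and the open points are miR-140 with upper quartile scaling (0.79) or without TghuTNF replicate 2 (0.51), miR-140* without TghuTNF replicate 2 (0.52) and miR-455* without WT replicate 1 (-0.92).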

How the data were processed

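Small RNA was sequenced from 4 cultures. Per the labels' protocols, libraries were made from gel bands of RNA 20 to 30 and 70 to 100 nucleotides long. The deposited values are raw counts of reads matched to 707 mouse mature miRNAs with mimap version 3d (reads of 37 bases, at most 2 mismatches, hash length 9), per the file headers, with the parts having 0, 1 and 2 mismatches. miRBase release, adaptor trimming and genome build: not given in the sources used here.

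Counts were filtered with filterByExpr (442 miRNAs kept), scaled with TMM and tested with edgeR 4.0.16 in R 4.3.3, genotype as the only term, two-sided, adjusted p threshold 0.05. The SE of a fold change is its size over the root of the F statistic. Log2 strand ratios and log2 odds of a perfect match (pseudocount 0.5) were compared with limma 3.58.1. Each fit ran over all rows that passed its filter. The edgeR, limma-voom and DESeq2 count fits at default settings and limma on log ratios were tested on simulated data. The other settings and the permutation test were not. The simulation gave every miRNA, and every log ratio, the same variation between replicates, so it does not cover uneven variation. DESeq2 1.42.0 was an alternative. Replicates differed by more than counting error (chi-square per degree of freedom 532 in WT and 553 in TghuTNF). This cannot tell separate cultures from repeated libraries of the same culture.

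The members and lists were chosen with earlier results of these data known. Named miRNAs are the members, up to 4 per list (called ones by p, then the most abundant) and the 3 nearest patterns per member.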

Additional observations from a re-analysis of the deposited data

How the results depend on the processing

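In every fit tried, the counts of miR-140 and miR-140* were higher and those of miR-455 and miR-455* lower in TghuTNF. Leaving out 1 library at a time (the lone library of a genotype is then assumed to vary like the other pair), the log2 fold change ranged from 0.51 to 1.13 for miR-140, 0.52 to 0.95 for miR-140*, -1.39 to -0.92 for miR-455* and 0.55 to 1.03 for the summed miR-140 hairpin. Calls ended without TghuTNF replicate 2 for miR-140, miR-140* and the hairpin, and without WT replicate 1 for miR-455*. Upper quartile factors ended the call of miR-140 (0.79). miR-24, not called, ranged from -0.25 to 0.15, positive without WT replicate 1. Upper quartile factors also ended the calls of miR-138 and miR-214. A mean of at least 100 CPM left out both miR-455 strands and their hairpin, and at least 1000 matches per library left them out of the perfect match fit.

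The 21 miRNAs called higher and 38 called lower became 39 and 54 without the filter, and 8 and 6 at a mean of at least 100 CPM. Without 1 library they ranged from 17 to 61 and from 29 to 92, both highest without TghuTNF replicate 1. Without TghuTNF replicate 2 they were 32 and 52. For hairpin sums (26 and 31), a mean of at least 100 CPM gave 12 and 11, upper quartile factors 20 lower, and leaving out 1 library 16 to 44 and 19 to 55.

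The strand ratio of miR-140 ranged from -0.0099 (without TghuTNF replicate 2, where the sign turned) to 0.18, and 0 to 1 hairpins were called higher. Leaving out 1 library, the log2 odds difference of a perfect match ranged from -0.69 to 0.15 for miR-140 and from -0.69 to 0.10 for miR-455, both turning positive without TghuTNF replicate 2, with 0 to 1 miRNAs called lower. With 0 or 1 mismatch set against 2, it was -1.79 for miR-140, -0.66 for miR-140*, -0.66 for miR-455 and 0.72 for miR-455*, none called. The strand ratio of miR-455 ranged from -1.17 to -0.33. The cause was not tested.

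The replicate numbers are shared by the genotypes, but deviations of same-numbered libraries did not correlate (r = -0.088 over 442 miRNAs). With so few libraries this cannot tell whether same-numbered libraries were prepared together. With the replicate number as a block, 34 miRNAs were called higher and 53 lower, 1 miRNA was called lower in the odds of a perfect match, and miR-140 (0.88), miR-140* (0.79), miR-455 (-1.90) and miR-455* (-1.16) kept their calls. Depth limits the miR-455 strands most, with 169 to 360 matches in TghuTNF.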

Other observations

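Besides miR-455, 8 hairpins had both strands called lower in TghuTNF by edgeR. They are named here after their values were seen: miR-146b, miR-322, miR-335, miR-378, miR-503, miR-542, miR-676 and miR-708. miR-322, miR-503 and miR-542 come from 1 X-linked cluster. Among them miR-335-5p (log2 fold change -4.28 ± 0.53) and miR-335-3p (-3.82 ± 0.34), from the imprinted Mest gene, fell most. miR-335-5p was at -3.48 without WT replicate 1, less deep than miR-335-3p there (-3.91), and at -5.19 without TghuTNF replicate 1. miR-708 fell by 1.40 ± 0.28 on the log2 scale and miR-708* by 1.57 ± 0.43; without WT replicate 2 neither was called (edgeR adjusted p = 0.058 and 0.38), and without WT replicate 1 miR-708* was not (0.13). miR-708* was also not called with DESeq2 (adjusted p = 0.077) or on perfect matches alone (edgeR adjusted p = 0.12).

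The rise of the 2-mismatch class in TghuTNF replicate 2 was uneven across miRNAs. Of 173 miRNAs with at least 100 such reads in that library, 68 had more than 2 times and 23 more than 5 times the share of the next highest library. miR-140 ranked 4th with a ratio of 15.3 and miR-140* 58th with 2.43. Named after their values were seen, miR-1961 (41.4), miR-130a (17.8) and miR-93 (16.2) ranked above miR-140. For miR-1961 the 2-mismatch share was 0.24% and 0.93% in WT, 1.04% in TghuTNF replicate 1 and 43.0% in TghuTNF replicate 2.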
